A study of Mus musculus with 14 samples.

Results

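The 35 genes described here encode the PI3K, AKT and mTOR signalling pathway and its FOXO-sestrin branch. They were chosen by name and grouped by role into 15 activators, 15 brakes and 5 genes of the FOXO-sestrin branch, out of 15036 genes listed in the deposited tables. All 35 were listed with and without IFN-beta. The cells were CD8 T cells from the spleens of C57BL/6 mice, sorted as naive cells by surface markers, and either wild type or Morrbid-/-. Morrbid is transcribed as a long noncoding RNA next to Bcl2l11, which codes for BIM, a protein that promotes apoptosis. All 14 libraries came from cells cultured for 6 h with plate-bound anti-CD3 and soluble anti-CD28, each at 1 µg/mL, which stand in for antigen and costimulation. Without IFN-beta there were 3 libraries per genotype. With 20 ng/mL of IFN-beta, a type I interferon, there were 4 per genotype. Libraries labelled Morrbid-/- are called knockout-labelled below. The extent of the Morrbid deletion is not stated. Nor is it stated that replicates are separate mice, so p-values reflect only how far these samples spread, which may be technical variation.

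In T cells, antigen receptor and CD28 signals switch on PI3K, a lipid kinase whose product recruits PDK1 and AKT to the membrane. AKT releases mTORC1, the growth-promoting kinase complex, from the TSC brake, and keeps FOXO transcription factors out of the nucleus. FOXO factors hold T cells in a resting, recirculating state, and sestrins restrain mTORC1 when nutrients are short or cells are stressed. Most of this control works through phosphorylation, which RNA levels do not show.

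The values are normalized counts as deposited, given for each library or as mean ± SD. Depth was 1747634 to 2963149 recovered reads per library without IFN-beta, and 5788070 to 7355337 with it. With IFN-beta every wild-type library was shallower (at most 6918633 reads) than every knockout-labelled library (at least 7132515). Morrbid itself, listed as Gm14005, was near the floor without IFN-beta, with 2, 4 and 2 reads in wild type and 7, 4 and 7 in knockout-labelled libraries. Those reads do not show the loss that the labels give, so each direction below follows the labels. Its neighbour Bcl2l11 was lower with the knockout label in both settings, without overlap. Without IFN-beta it held 386, 322 and 459 in wild type against 320, 268 and 311 (limma adjusted p = 0.424). With IFN-beta it held 746, 687, 668 and 560 against 482, 420, 404 and 340. What this says about the labels was not tested. Morrbid with IFN-beta was not analysed here. The CD8 chain gene Cd8a stood at 2315 to 2552 in all libraries with IFN-beta (log2 difference -0.04; limma adjusted p = 0.753). Markers of other cells were low: the B cell list summed to at most 28.4 and the myeloid list to at most 36.0 in any library, while Cd4 and Ms4a1 were not analysed here. With IFN-beta only 2 of 6 B cell genes and 3 of 7 myeloid genes were listed. The myeloid list there summed to 13.3 to 16.5 in wild type and to 17.4 to 36.0 in knockout-labelled libraries. The CD4 and regulatory T cell list, of which 3 of 5 genes were listed with IFN-beta, summed to 693 to 800 in wild type and to 866 to 1090 in knockout-labelled libraries. Nearly all of that sum was Ikzf2 and Ctla4, and Foxp3 was at 2.05 to 9.16. The NK cell list, carried by Eomes, summed to 44.7 to 66.5 in wild type and to 83.8 to 107 with the knockout label without IFN-beta, where Ncr1 was at 0 in every library. With IFN-beta, 3 of its 4 genes summed to 1209 to 1397 and to 1363 to 1784. Eomes alone was at 1205 to 1391 in wild type and 1357 to 1773 in knockout-labelled libraries there. Klrk1 was at most 10.1 and Klrb1c at most 4.88 in any library of either setting. Eomes itself was called higher without IFN-beta (log2 difference 0.84; limma adjusted p = 0.0223). The part of the myeloid, CD4 and regulatory T cell, and NK cell lists in the results below was not tested. In bulk RNA, fewer cells of a type and less RNA per cell cannot be told apart.

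With IFN-beta, 3 pathway genes rose and 1 fell in knockout-labelled libraries. Sesn3, a sestrin, rose 1.28-fold. Irs2, an adaptor that couples insulin and cytokine receptors to PI3K, rose 1.37-fold, and Eif4ebp2, a repressor of cap-dependent translation that mTORC1 switches off, rose 1.27-fold. Pik3cd, a catalytic PI3K subunit enriched in leukocytes, fell to 0.875 of its wild-type level. These 4 were 12.1% of the 33 members tested, beside 10.1% of all 9964 genes tested that passed (5.25% higher and 4.84% lower), so the share of members called was near that of all genes. At an unadjusted p under 0.05 there were 9 members, beside 24.4% of all genes. The test was limma on log2(normalized count + 1) with Benjamini-Hochberg adjusted p under 0.05, among genes with a mean of at least 10. Eif4ebp1 and Ddit4 were too low to test. The median log2 difference of the members was 0.04, beside 0.0015 for all genes, and the range ran from -0.24 for Pdpk1 to 0.82 for Sesn2. The groups did not overlap in 6 of the 33, or 18.2%, beside 15.2% of all genes. Rescaling the libraries to equal totals moved the median of all genes from 0.0015 to 0.04 and gave 4 members higher and 0 lower, because Pik3cd lost its call and Foxo1 gained one. That scaling also moved the calls over all genes from 523 higher and 482 lower to 730 and 344. Without limma's mean-variance trend 1 member passed, Sesn2.

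**Figure D1:**
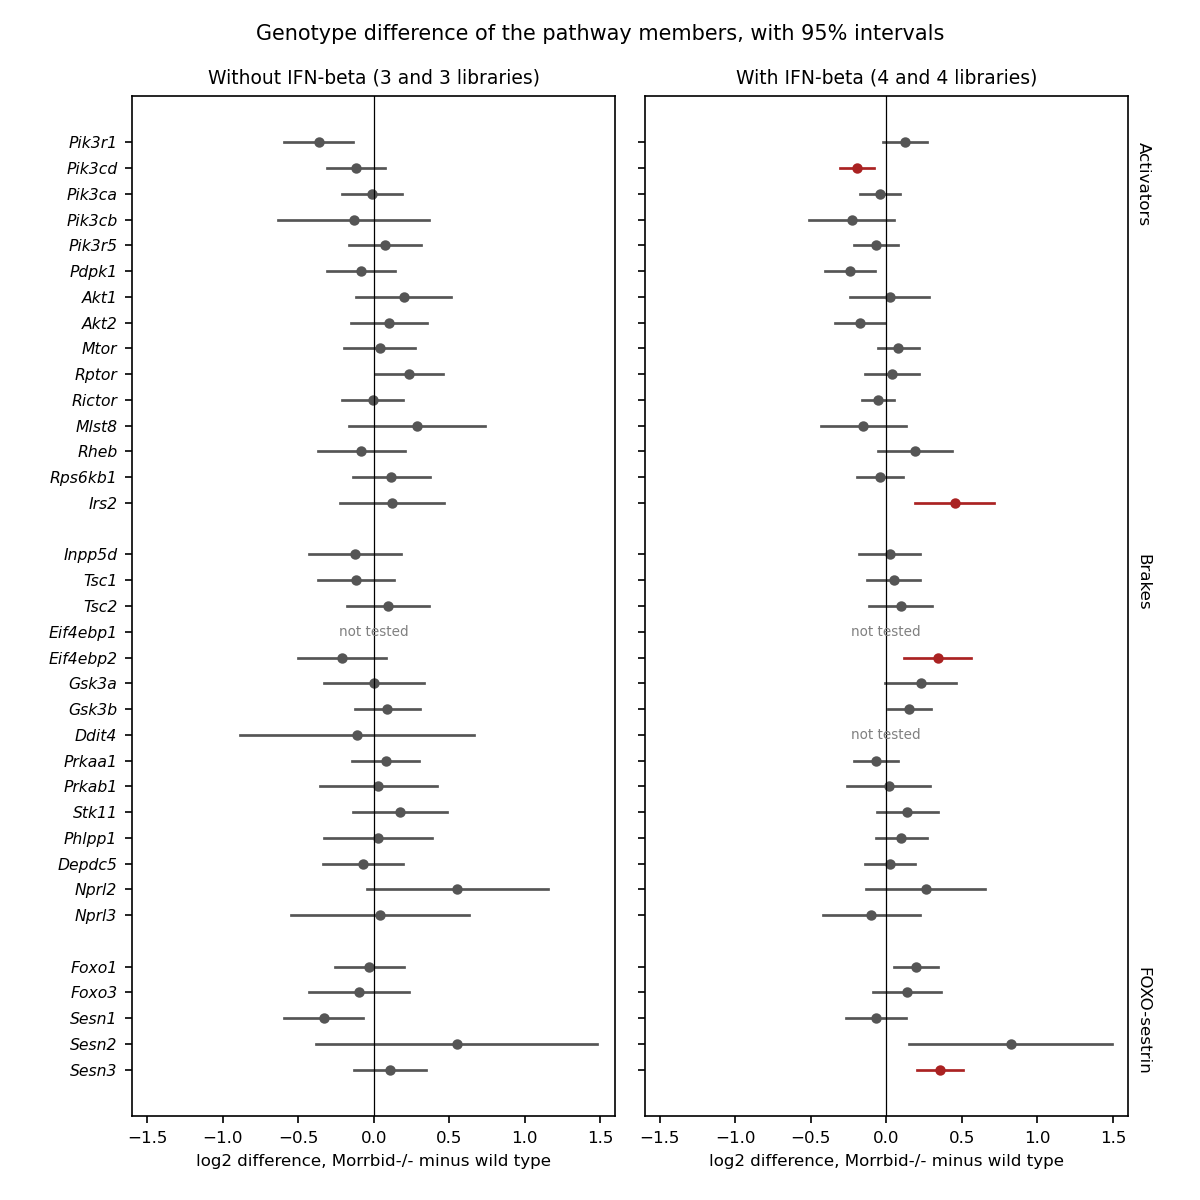
Log2 difference of each of the 35 pathway genes, Morrbid-/- label minus wild type, on the horizontal axis, without IFN-beta at left (3 and 3 libraries) and with it at right (4 and 4 libraries). Points are limma estimates with 95% intervals, and red marks an adjusted p under 0.05. The 4 red points are Pik3cd at -0.19, Irs2 at 0.45, Eif4ebp2 at 0.34 and Sesn3 at 0.36, all with IFN-beta.

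Among the 15 activators with IFN-beta, 1 rose, 1 fell and 13 were not called, with a median log2 difference of -0.04. Pik3cd (GRCm38.p6 chr4:149649168-149702566, minus strand), the gene for the p110-delta catalytic subunit, held 4660, 5062, 5269 and 5213 normalized counts in wild type and 4257, 4593, 4463 and 4348 in knockout-labelled libraries. Every knockout-labelled library was below every wild-type library. The means were 5051 ± 275 and 4415 ± 145 (SD, n = 4 each); the log2 change was -0.19 (SE 0.05; limma adjusted p = 0.0232). The call on Pik3cd was lost after rescaling to equal totals (adjusted p = 0.0817) and without any one of 5 libraries: wild-type replicate 2 (0.0633), 3 (0.0630) or 4 (0.0516), or knockout-labelled replicate 1 (0.0677) or 3 (0.0513).

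Irs2 (chr8:10984681-11008929, minus strand) held 76.7, 106.5, 101.6 and 100.6 normalized counts in wild type and 129.2, 143, 124.9 and 128.6 in knockout-labelled libraries. The groups did not overlap, and wild-type replicate 1 was the lowest library. The means were 96.3 ± 13.3 and 131.4 ± 7.93 (SD, n = 4 each); the log2 change was 0.45 (SE 0.13; limma adjusted p = 0.0229). The call was lost when wild-type replicate 1 (adjusted p = 0.0938) or knockout-labelled replicate 2 (0.0907) was left out, and with the share of mitochondrial 16S rRNA reads as a covariate (0.139). That share was highest, at 12.0%, in wild-type replicate 1, and between 9.05% and 10.6% in the other 7 libraries with IFN-beta. Of the exon bases of Irs2, 2.56% overlapped a gene on the opposite strand.

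The other activators did not pass with IFN-beta. Pdpk1, the gene for PDK1, which phosphorylates AKT, held 819, 915, 887 and 759 in wild type and 744, 668, 819 and 637 in knockout-labelled libraries (-0.24, SE 0.08; limma adjusted p = 0.0589). These values overlapped in the highest knockout-labelled library. Pdpk1 passed as lower with the 16S rRNA covariate (adjusted p = 0.0391) and without wild-type replicate 4 (0.0262) or knockout-labelled replicate 3 (0.0232). Akt2, one of the AKT kinases, held 473, 500, 486 and 496 against 453, 435, 474 and 377 (-0.17, SE 0.08; limma adjusted p = 0.177), and the difference was -0.11 without knockout-labelled replicate 4. Of the 75-base stretches of Akt2, 6.06% also occurred in its pseudogene Akt2-ps, so some of its reads may be shared. Akt1 was at 110 ± 10.1 and 112 ± 13.7, with a 95% interval of -0.24 to 0.29 for the log2 difference. The mTOR kinase gene Mtor (0.08), the mTORC1 scaffold gene Rptor (0.04), the mTORC2 scaffold gene Rictor (-0.05) and the S6 kinase gene Rps6kb1 (-0.04) had log2 differences under 0.1 in either direction. For Rictor the 95% interval was -0.16 to 0.05 and for Mtor it was -0.05 to 0.21. The PI3K catalytic genes Pik3ca (-0.04) and Pik3cb (-0.23), the regulatory genes Pik3r1 (0.12) and Pik3r5 (-0.07), the mTOR partner gene Mlst8 (-0.15) and Rheb (0.19), the GTPase that switches mTORC1 on, also did not pass, with limma adjusted p-values between 0.282 and 0.752.

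Of the 13 brakes tested with IFN-beta, 1 rose, 0 fell and 12 were not called, with a median log2 difference of 0.09. Eif4ebp2 (chr10:61428491-61452790, minus strand) held 164, 233.5, 192.7 and 196.3 normalized counts in wild type and 218.1, 259.4, 246.2 and 268.2 in knockout-labelled libraries. The groups overlapped, since wild-type replicate 2 was above knockout-labelled replicate 1. The means were 196.6 ± 28.5 and 248 ± 21.9 (SD, n = 4 each); the log2 change was 0.34 (SE 0.11; limma adjusted p = 0.0442). This call was close to the threshold. It was lost without a filter on low counts (adjusted p = 0.0523), with the 16S rRNA share as a covariate (0.185) and without any one of 6 libraries: wild-type replicate 1 (0.163), 3 (0.0739) or 4 (0.0637), or knockout-labelled replicate 2 (0.128), 3 (0.0859) or 4 (0.114). Its relative Eif4ebp1 was near the floor, at 2.34 to 8.26 in wild type and 0.912 to 4.49 in knockout-labelled libraries, from 1 to 7 reads.

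Gsk3b, a kinase that AKT inhibits, held 628, 582, 666 and 673 in wild type and 707, 704, 699 and 720 in knockout-labelled libraries. All 4 knockout-labelled values were above all 4 wild-type values, but the log2 difference of 0.15 (SE 0.07) did not pass (limma adjusted p = 0.166). Its relative Gsk3a was at 0.23 (limma adjusted p = 0.217), and 19.3% of the exon bases of Gsk3a overlapped a gene on the opposite strand. The phosphatase genes Inpp5d (0.02), which encodes SHIP1, and Phlpp1 (0.10), whose product dephosphorylates AKT, did not pass. Neither did Tsc1 (0.05) and Tsc2 (0.09), which encode the TSC complex that holds Rheb off. The genes of the AMPK arm, which senses low energy, were Prkaa1 (-0.07), Prkab1 (0.02) and Stk11 (0.14), the gene for the upstream kinase LKB1, and none passed. Depdc5 (0.03), Nprl2 (0.26) and Nprl3 (-0.10) encode GATOR1, which holds mTORC1 off when amino acids are scarce, and none passed. For these 10 genes limma gave adjusted p-values between 0.422 and 0.963. Ddit4, the gene for the mTORC1 inhibitor REDD1, was at 3.50 to 5.90 in wild type and 4.58 to 6.39 in knockout-labelled libraries, from 3 to 7 reads.

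The FOXO-sestrin branch with IFN-beta had 1 gene higher, 0 lower and 4 not called, with a median log2 difference of 0.20. Sesn3 (chr9:14276301-14326134, plus strand) held 745, 892, 913 and 829 normalized counts in wild type and 1114, 1112, 974 and 1119 in knockout-labelled libraries. The lowest knockout-labelled library, replicate 3, stood apart from the other 3 but was still above every wild-type library. The means were 844.7 ± 75.7 and 1080 ± 70.6 (SD, n = 4 each); the log2 change was 0.36 (SE 0.07; limma adjusted p = 0.00215). Sesn3 passed when any single library was left out and under each alternative run except the fit without the mean-variance trend (adjusted p = 0.0740).

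Foxo1, the FOXO factor that maintains naive T cells, held 518, 598, 579 and 552 in wild type and 657, 648, 633.5 and 631 in knockout-labelled libraries. The groups did not overlap, and the log2 difference was 0.20 (SE 0.07; limma adjusted p = 0.0796). It passed after rescaling to equal totals (adjusted p = 0.0352). Of the exon bases of Foxo1, 7.78% overlapped a gene on the opposite strand. Sesn2, a sestrin induced by stress, was low, at 7.08, 7.17, 9.34 and 9.76 in wild type and 15.6, 18.3, 15.3 and 12.8 in knockout-labelled libraries, from 6 to 20 reads. These groups did not overlap either (0.82, SE 0.33; limma adjusted p = 0.114). Foxo3 (0.14, limma adjusted p = 0.485) and Sesn1 (-0.07, limma adjusted p = 0.731) overlapped between genotypes.

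**Figure D2:**
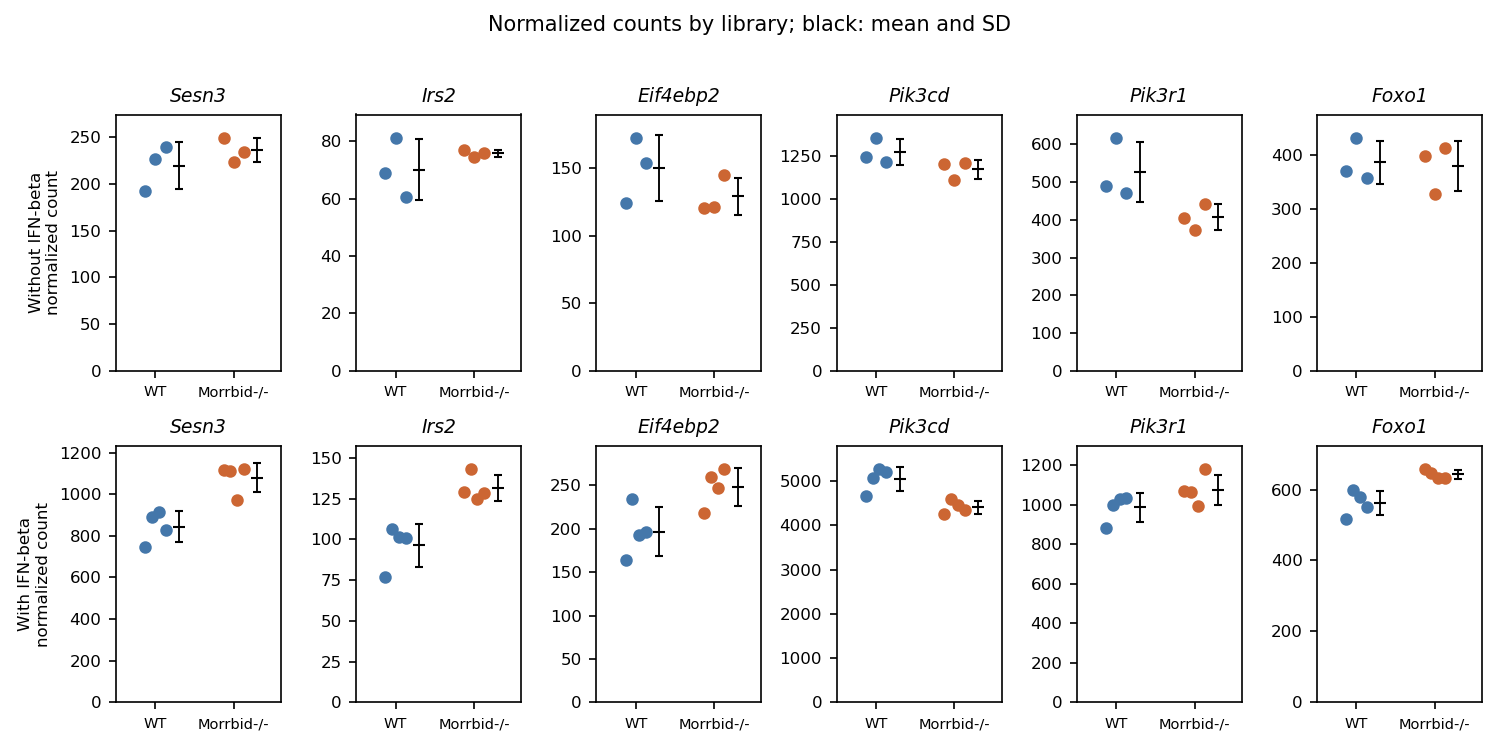
Normalized counts of 6 pathway genes in every library, without IFN-beta in the top row and with it in the bottom row, from 0. Points are libraries of the wild type (blue) and of the Morrbid-/- label (orange), and black marks give the mean and SD. With IFN-beta the genotypes do not overlap for Sesn3, Irs2, Pik3cd and Foxo1, and without it they do not overlap for Pik3r1 and Pik3cd.

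Without IFN-beta none of the 34 tested pathway genes passed in knockout-labelled libraries, and most estimates were small. The count was 0 by limma, by edgeR and by DESeq2, beside 0.635% of all 9291 genes tested by limma (0.538% higher and 0.0969% lower). At an unadjusted p under 0.05 there were 3 members (Pik3r1, Sesn1 and Rptor), beside 6.12% of all genes. The median log2 difference was 0.03, beside -0.0061 for all genes, with 19 members above and 15 below 0, from -0.36 for Pik3r1 to 0.55 for Nprl2. The activators (0 of 15, median 0.04), the brakes (0 of 14, median 0.03) and the FOXO-sestrin branch (0 of 5, median -0.03) had 0 calls each. After rescaling to equal totals the last of these medians was 0.02. The 95% interval lay within 0.5 in either direction for 24 of the 34 members and within 1 for 32, so larger differences were within the error for the others. Eif4ebp1, with 3 to 8 reads, was too low to test. The groups did not overlap in 3 members, or 8.82%, beside 10.9% of all genes.

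Pik3r1 (chr13:101680761-101768217, minus strand) encodes p85-alpha, which binds and stabilises the catalytic PI3K subunits. It held 490, 617 and 472 normalized counts in wild type and 404, 373 and 443 in knockout-labelled libraries. The groups did not overlap, and the means were 526 ± 79.2 and 407 ± 35 (SD, n = 3 each). The log2 difference of -0.36 (SE 0.11) did not pass (limma adjusted p = 0.302). Adding the 16S rRNA share as a covariate brought it past the threshold (adjusted p = 0.0318). That share divided the libraries in another way than genotype, with 18.1%, 16% and 12.5% in wild type and 18.9%, 12.8% and 11.6% in knockout-labelled libraries.

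Rptor, the gene for the scaffold that brings substrates to mTORC1, had wild-type values of 228, 249 and 251 and knockout-labelled values of 283, 263 and 310, with no overlap (0.23, SE 0.11; limma adjusted p = 0.792). Pik3cd was at 1245, 1356 and 1217 against 1203, 1109 and 1208, also with no overlap (-0.12, SE 0.09; limma adjusted p = 0.936), and the difference was -0.07 after rescaling to equal totals or without wild-type replicate 2, and -0.08 without knockout-labelled replicate 2. Among the brakes, Eif4ebp2 was at 124, 173 and 154 against 121, 122 and 145 (-0.21, SE 0.14; limma adjusted p = 0.907). Its groups overlapped, as did those of Nprl2, and its difference was -0.34 without wild-type replicate 1 and -0.10 without wild-type replicate 2. Nprl2 was at 25.9, 15.6 and 14.5 against 32.4, 23.6 and 25.6 (0.55, SE 0.29; limma adjusted p = 0.837), from 15 to 32 reads. In the FOXO-sestrin branch, Sesn1 was at 239, 283 and 198 against 181, 199 and 185 (-0.33, SE 0.13; limma adjusted p = 0.605). Only the lowest wild-type value of Sesn1 reached into the knockout-labelled range, and the difference was -0.21 without wild-type replicate 2. Sesn2 was at 8.05, 4.16 and 11.5 against 13.2, 17 and 6.14, from 4 to 15 reads (0.55, SE 0.45; limma adjusted p = 0.943). Leaving out wild-type replicate 2 (0.20) or 3 (0.84), or knockout-labelled replicate 2 (0.27) or 3 (0.94), moved that difference. Sesn3 and Irs2, which rose with IFN-beta, stood at 0.11 (95% interval -0.13 to 0.35) and 0.12 (-0.22 to 0.46) without it.

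The genotype effect on the pathway genes was then compared between the settings with and without IFN-beta, as an interaction term in a limma fit of all 14 libraries. No member of 33 passed by limma or edgeR, and 1 (Pik3r1) passed by DESeq2, beside 1.33% of 9078 genes by limma (0.441% higher and 0.892% lower). At an unadjusted p under 0.05 there were 2 members, Pik3r1 and Eif4ebp2, beside 12.0% of all genes. For Pik3r1 the genotype difference was -0.36 without and 0.12 with IFN-beta, a change of 0.49 (SE 0.13; limma adjusted p = 0.0636). It passed by DESeq2 (adjusted p = 0.0487), with the 16S rRNA share as a covariate (0.0353) and without wild-type replicate 1 (0.0481) or 3 (0.0258) or knockout-labelled replicate 3 (0.0406) of the libraries without IFN-beta. For Eif4ebp2 the difference was -0.21 without and 0.34 with IFN-beta, a change of 0.55 (SE 0.18; limma adjusted p = 0.155). The effects on Akt2 (-0.28, limma adjusted p = 0.418), Prkaa1 (-0.15, 0.659), Sesn3 (0.25, 0.456) and Foxo1 (0.22, 0.508) did not differ detectably between the settings, and neither did that on Irs2 (0.33, 0.541) or Pik3cd (-0.08, 0.810). Leaving out wild-type (0.14) or knockout-labelled (0.12) replicate 2 without IFN-beta moved the value of Foxo1, and leaving out knockout-labelled replicate 2 with IFN-beta moved that of Prkaa1 (-0.09). The calls on Sesn3, Irs2, Eif4ebp2 and Pik3cd with IFN-beta are therefore not shown to be particular to it. All 5 genes of the FOXO-sestrin branch had estimates of 0.22 to 0.27, none past the threshold.

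Per length of exon, Pik3cd was the most abundant of the 35 genes in every group. Its mean level in wild type was 99.1 RPKM, the reads per kilobase of exon for every 1000000 reads of the library, without IFN-beta and 140 with it. The next in wild type were Rictor (48.7), Pik3r1 (28.8) and Rheb (25.9) without IFN-beta, and Rictor (51.0), Pik3r5 (42.8) and Phlpp1 (30.3) with it. Sesn2 (0.953) and Eif4ebp1 (1.08) were lowest without IFN-beta, and Eif4ebp1 (0.324), Sesn2 (0.354) and Ddit4 (0.366) with it. The ratio of the level per length of Pik3cd to that of its partner Pik3r1 was 3.12 to 3.67 in wild type and 3.87 to 4.23 in knockout-labelled libraries without IFN-beta. With IFN-beta it was 7.15 to 7.51 in wild type and 5.24 to 6.39 in knockout-labelled libraries. The knockout-labelled libraries were thus above wild type in one setting and below in the other, without overlap, which is given as a description because the ratio was chosen with these results known. With IFN-beta the ratio of Akt2 to Akt1 was 2.27 to 2.80 in wild type and 2.10 to 2.23 in knockout-labelled libraries. The ratio of Sesn3 to Sesn1 there was 1.12 to 1.40 in wild type and 1.38 to 1.88 in knockout-labelled libraries, which overlapped.

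The tables with and without IFN-beta were normalized separately, and no source used here says whether those libraries were made together. Levels between the settings are therefore set side by side, as reads for every 1000000 reads of the library (RPM), and were not tested. Phlpp1 had the largest ratio of the members. Its level was 23.7 to 32.1 RPM in the 6 libraries without IFN-beta and 152 to 219 in the 8 libraries with it. The ratio of the group means, with over without IFN-beta, was 7.05 in wild type and 7.28 in knockout-labelled libraries, beside a median ratio of 0.694 and 0.702 over 9078 genes. Of those genes, 111 had a larger ratio than Phlpp1 in wild type and 75 in knockout-labelled libraries. Pik3r5 (1.93 and 1.73), a regulatory subunit of the PI3K that G protein-coupled receptors use, Pik3cd (1.42 and 1.33) and Sesn3 (1.36 and 1.62) were the other members whose libraries with IFN-beta all lay above those without. For 15 members they all lay below, and 16 overlapped. Over the 9078 genes, 7.69% lay above and 44.4% below in the same way, so the count of 15 of 35 members below was near the share of all genes. Ddit4 had the smallest ratio, with 3.43 to 11.1 RPM without and 0.518 to 0.952 with IFN-beta, the latter from 3 to 7 reads. Akt1 was at ratios of 0.377 and 0.333. In both genotypes the libraries with IFN-beta lay above those without for Phlpp1, Pik3r5, Pik3cd and Sesn3, and below for Ddit4 and Akt1.

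**Figure D3:**
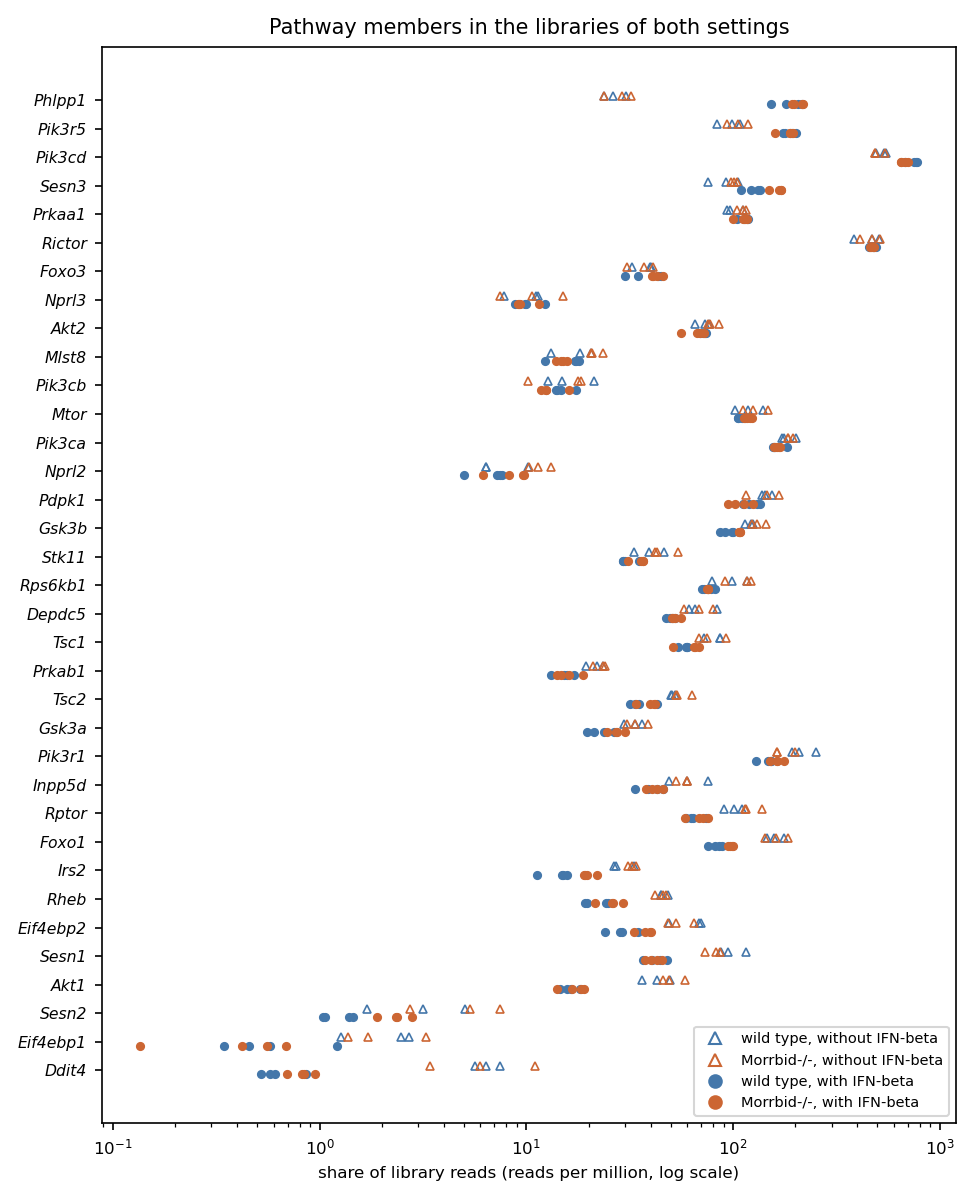
Share of library reads of each of the 35 pathway genes, in RPM on a log axis, in every library. Triangles are libraries without IFN-beta and circles those with it, blue for wild type and orange for the Morrbid-/- label. Phlpp1, at the top, lies at 23.7 to 32.1 without and 152 to 219 with IFN-beta, and Ddit4, at the bottom, at 3.43 to 11.1 and 0.518 to 0.952.

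Other genes of the pathway were counted from lists of its further components. Of other PI3K and AKT genes, 0 of 15 passed without and 0 of 17 with IFN-beta by limma, beside 0.635% and 10.1% of all genes. An unadjusted p under 0.05 was found for 1 of the 15 and 7 of the 17, beside 6.12% and 24.4% of all genes. Of other mTOR and AMPK genes, 0 of 34 passed without IFN-beta and 2 of 36 with it, or 5.56%, and 1 and 11 had an unadjusted p under 0.05. Eif4g1, the scaffold of the cap-binding translation complex that 4E-BP proteins compete with, was at 1765 ± 77.3 in wild type and rose to 2036 ± 114 (log2 change 0.21, SE 0.06; limma adjusted p = 0.0275). Its call was lost with the 16S rRNA covariate (adjusted p = 0.0969) and without any one of 5 libraries: wild-type replicate 1 (0.0997) or 2 (0.0647), or knockout-labelled replicate 2 (0.107), 3 (0.0513) or 4 (0.0694). Rragd, a Rag GTPase that brings mTORC1 to the lysosome, fell from 44.2 ± 4.63 to 23.0 ± 8.01 (-0.97, SE 0.24; limma adjusted p = 0.00988), a call lost without the mean-variance trend (0.0636).

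Genes listed here as FOXO targets went both ways with IFN-beta. Whether FOXO factors act on each of them in these cells was not tested. Of 20 tested, 5 rose and 3 fell in knockout-labelled libraries, or 40%, beside the 10.1% of all genes, and this difference in shares was not tested. Some of these genes were known to differ when the list was made, so the 40% cannot be read as enrichment. The median log2 difference was 0.04. Of the 20, 11 were above and 9 below 0. The 5 that rose are linked to resting T cells, as are listed genes that did not pass, such as Il7r (-0.13) and S1pr1 (0.04). Tcf7, the transcription factor gene for TCF1, held 2590, 2876, 2904 and 2525 in wild type and 3401, 3370, 3826 and 3930 in knockout-labelled libraries (0.41, SE 0.06; limma adjusted p = 1.05e-04). Ccr7, the receptor that guides T cells into lymph nodes, held 517, 589, 521 and 621 against 874, 690, 796 and 847 (0.51, SE 0.08; limma adjusted p = 1.68e-04). For both genes the lowest knockout-labelled library was above the highest wild-type library. Klf3 (1167 ± 95.1 against 1352 ± 33.2, 0.22) and Klf2 (843 ± 95.6 against 1001 ± 57.6, 0.25), transcription factor genes of quiescence and trafficking, and Cdkn1b, the gene for the cell cycle inhibitor p27 (683 ± 68.4 against 860 ± 138, 0.32), also rose, with limma adjusted p-values between 0.0301 and 0.0340. The genotypes overlapped for Klf2 and Cdkn1b but not for Klf3. The calls on these 3 genes were lost with the 16S rRNA covariate, without the mean-variance trend and without any one of 5 libraries. For Klf2 and Klf3 these were wild-type replicates 1 and 2 and knockout-labelled replicates 1, 2 and 3, with adjusted p-values of up to 0.133 for Klf2 and 0.132 for Klf3. For Cdkn1b they were wild-type replicates 1 and 3 and knockout-labelled replicates 2, 3 and 4, with values of up to 0.104.

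The 3 listed FOXO targets that fell were Bcl2l11, Pdk1 and Tnfsf10. Bcl2l11, the neighbour of Morrbid, fell by 0.69 (SE 0.10; limma adjusted p = 3.14e-05). It is the only gene of the list that lies beside the targeted gene. Pdk1, the gene for a pyruvate dehydrogenase kinase that turns glucose carbon away from mitochondria and not for the PDK1 that activates AKT, held 668, 797, 799 and 779 in wild type and 518, 545, 573 and 603 in knockout-labelled libraries (-0.44, SE 0.08; limma adjusted p = 3.66e-04). Tnfsf10, the death ligand TRAIL, which interferon also induces, fell from 1298 ± 75.7 to 1096 ± 44.1 (-0.24, SE 0.06; limma adjusted p = 0.0137). That call was lost without wild-type replicate 2 (0.0548) or knockout-labelled replicate 3 (0.0611). Other FOXO1 targets of naive cells did not pass, among them Il7r, the interleukin-7 receptor (-0.13, limma adjusted p = 0.206), and S1pr1, an egress receptor (0.04, 0.754). Il7r passed as lower without knockout-labelled replicate 4 (-0.20, limma adjusted p = 0.0283), and was at -0.07 without knockout-labelled replicate 1. The count of 8 was 5 (2 higher, 3 lower) with the 16S rRNA share as a covariate. It was also 5 without wild-type replicate 1 or 2 or knockout-labelled replicate 2, and 4 without knockout-labelled replicate 3.

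Without IFN-beta 0 of 19 FOXO targets passed by limma (4 at an unadjusted p under 0.05), with 4 above and 15 below 0 and a median of -0.13. The groups did not overlap in 5, or 26.3%, beside 10.9% of all genes, and in all 5 (S1pr1, Il7r, Klf3, Trib2 and Bcl2l11) the knockout label was lower. The genotype effect differed between the settings for 2 of the 19, or 10.5%, beside 1.33% of all genes. These were Tcf7 (-0.11 without and 0.41 with IFN-beta, a change of 0.52, SE 0.11; limma adjusted p = 0.0102) and Cdkn1b (-0.31 and 0.32, a change of 0.64, SE 0.16; limma adjusted p = 0.0420). Tcf7 passed when any single library was left out, but not without the mean-variance trend (adjusted p = 0.129). Cdkn1b did not pass after rescaling to equal totals (adjusted p = 0.0515) or without the mean-variance trend (0.224). Nor did Cdkn1b pass in 10 of the 14 fits that left out 1 library. Of these, the one without wild-type replicate 2 without IFN-beta gave the highest adjusted p (0.119). The next, Ccr7, was at 0.50 (limma adjusted p = 0.0510). These tests share their libraries, and some of these genes were known to differ when the list was made, so they add no independent support to one another.

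**Figure D4:**
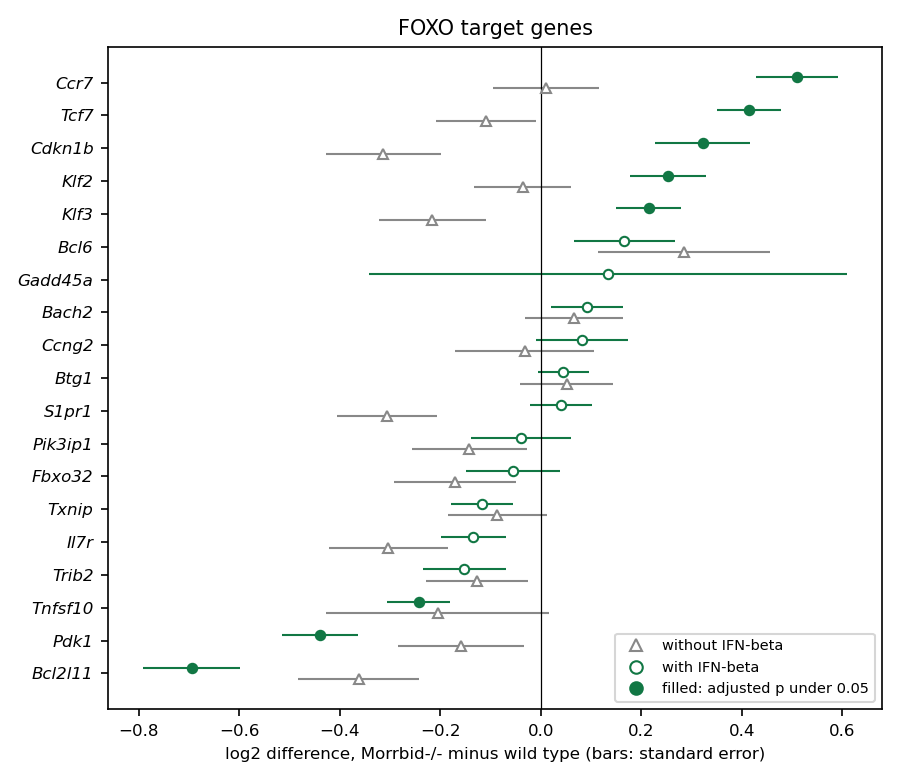
Log2 difference of 19 of the 20 FOXO target genes, Morrbid-/- label minus wild type, with standard errors, without IFN-beta (triangles) and with it (circles). Filled circles passed with IFN-beta, from Ccr7 at 0.51 to Bcl2l11 at -0.69, and no triangle passed.

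The promoters of the pathway genes were searched for the FOXO core motif and for the core of the interferon-stimulated response element. The sequences are RefSeq promoters of GRCm38.p6, read from 250 bases before each annotated start up to it, and 34 of the 35 genes had at least 1, with 43 starts in all. The motif GTAAACA, on either strand, was in 1 of the 43, that of Akt1, and in 3.17% of all 32851 promoters. The 3 genes that rose with IFN-beta are shown with Akt1, so that the promoters searched can be read. Capitals mark the match in Akt1, TGTTTAC, which is the FOXO motif on the other strand, 161 to 155 bases before the start.
Sesn3, chr9:14276051-14276300, plus strand: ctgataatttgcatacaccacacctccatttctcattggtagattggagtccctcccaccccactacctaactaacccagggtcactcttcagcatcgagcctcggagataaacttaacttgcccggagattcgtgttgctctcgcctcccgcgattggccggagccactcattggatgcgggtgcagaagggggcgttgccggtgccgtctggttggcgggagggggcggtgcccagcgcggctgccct
Irs2, chr8:11008930-11009179, minus strand: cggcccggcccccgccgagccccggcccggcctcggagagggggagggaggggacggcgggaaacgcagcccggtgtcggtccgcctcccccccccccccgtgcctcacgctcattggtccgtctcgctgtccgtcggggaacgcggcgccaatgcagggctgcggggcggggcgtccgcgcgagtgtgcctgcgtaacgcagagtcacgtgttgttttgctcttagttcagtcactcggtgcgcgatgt
Eif4ebp2, chr10:61452791-61452919, minus strand: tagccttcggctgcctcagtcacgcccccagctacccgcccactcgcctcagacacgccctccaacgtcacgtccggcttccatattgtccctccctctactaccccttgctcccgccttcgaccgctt
Akt1, chr12:112674885-112675134, minus strand: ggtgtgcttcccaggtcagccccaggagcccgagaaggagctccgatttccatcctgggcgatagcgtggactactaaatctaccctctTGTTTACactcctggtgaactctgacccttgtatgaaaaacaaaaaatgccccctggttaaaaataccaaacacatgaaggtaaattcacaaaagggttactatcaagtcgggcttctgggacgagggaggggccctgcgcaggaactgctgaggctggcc
The stretch of Eif4ebp2 is 129 bases long because the rest of its window lies within the annotated gene. The share of G and C was 59.6% for Sesn3, 72.8% for Irs2, 64.3% for Eif4ebp2 and 52.0% for Akt1. A match is a description of these letters, and Akt1 itself did not pass in either setting.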

How the data were processed

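Total RNA libraries were made from 100 ng of RNA with a stranded kit and read as 75-base pairs, per the labels' protocols. For each setting the authors deposited a table of normalized counts, that is, a count signal scaled per library. Trimmomatic, STAR 2.5, featureCounts, DESeq2, GRCm38 and mm10 are named in the submitters' processing notes, with no role for any. No source used here gives the strand setting or annotation release, and overlapping genes may share reads: the exons of 9 members overlap a gene on the opposite strand, and 6 share over 5% of their 75-base stretches with another gene. In every library the deposited signal moved in equal steps, and division by the step gave whole reads, within 0.01, for 100% of values. Depth was 1747634 to 2963149 recovered reads per library without IFN-beta and 5788070 to 7355337 with it, and low genes were correspondingly imprecise.

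The genotype comparison ran separately in each table, in limma 3.58.1 (R 4.3.3), with a trend of variance on mean. Values entered as log2(normalized count + 1), for genes whose mean reached 10, and p-values were adjusted over all such genes. Differences are Morrbid-/- label minus wild type on that log2 scale, where low genes move less than their true change. The fit was tested on simulated data. The members and gene lists were chosen with earlier results of these data known. In each setting, values in every library were given for members that passed. Where fewer than 2 passed in a branch, values were also given for the 2 with the smallest p. For the difference between settings, members chosen in the same way are given by their estimates, not all with values in every library. Up to 5 passing genes per further list were named, with the smallest p. The other 3 FOXO targets that passed with IFN-beta (Cdkn1b, Klf2 and Klf3) were named after their values were seen. Other genes are named as values. Alternatives were pseudocounts of 0.5 and 5, a mean filter of 50 or none, equal totals, no trend, edgeR 4.0.16 and DESeq2 1.42.0 on recovered reads, the 16S rRNA share as a covariate, a replicate block and leaving out each library. Promoters and gene coordinates came from RefSeq tables of GRCm38.p6. Reads per kilobase used the union of a gene's exons in the GENCODE annotation of mouse genes, as did the overlaps of exons with other genes. The shared 75-base stretches were found in GENCODE transcripts. The result of 1 gene that stays in the counts of FOXO targets is not reported here.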

Additional observations from a re-analysis of the deposited data

Results flagged for a closer look

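In 7 of the 66 groups of 4 libraries checked with IFN-beta, 1 library stood apart from the other 3 by Dixon's criterion, where chance gives about 1 in 20. Sesn3 in knockout-labelled replicate 3 was at 974.1, against 1112 to 1119 in the other 3. Pik3ca in wild-type replicate 3 was at 1238, against 1057 to 1084. Mlst8 in wild-type replicate 4 was at 83, against 117.8 to 121.4. Stk11 was at 236.5 in wild-type replicate 2, against 198.5 to 202.1, and at 202.5 in knockout-labelled replicate 1, against 239 to 241. Nprl2 in wild-type replicate 1 was at 34.22, against 48.82 to 51.38. Nprl3 in knockout-labelled replicate 2 was at 75.15, against 60.21 to 61.39. These were 7 different libraries.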

How the results depend on the processing

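Without IFN-beta the count of pathway genes called was 0, and 1 (Pik3r1) with the 16S rRNA share as a covariate or with the replicate block. With IFN-beta the count was 4, with 1 without the mean-variance trend, 3 with the 16S covariate (Sesn3 higher, Pdpk1 and Pik3cd lower), 5 with the block (Pdpk1 added) and 2 to 3 when 1 library was left out. For the difference between settings it was 0, with 1 by DESeq2, 1 with the 16S covariate, 2 with the replicate block (Pik3r1 and Eif4ebp2, adjusted p = 0.0194 and 0.0428) and 0 to 1 when 1 library was left out. The FOXO target count with IFN-beta was 8, with 4 without the trend, 5 with the 16S covariate and 4 to 8 when 1 library was left out. Over all genes the counts were 59, 1005 and 121. They were 17, 305 and 66 without the trend, 103, 749 and 190 with the 16S covariate, and 169, 1421 and 311 with the block, and without knockout-labelled replicate 2 the first 2 were 39 and 609. Among genes named by rule, none of those followed under the alternatives reversed. Other estimates near 0 could change sign: that of Foxo1 without IFN-beta, -0.03, was 0.02 after rescaling and 0.05 and 0.07 without replicate 2 of wild type or of the knockout label. Same-numbered libraries of the genotypes deviated together weakly, with correlations of -0.021 to 0.204 without and 0.0033 to 0.141 with IFN-beta. In 4 of 6 and 6 of 8 libraries the best match was the own number, a hint from the data and not the design, so the block is given here only (for Pik3r1 without IFN-beta, adjusted p = 0.00770). Depth limits Sesn2, Ddit4 and Eif4ebp1 most, with at most 20, 7 and 7 reads in a library with IFN-beta.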
